A study of Rattus norvegicus with 23 samples.

Results

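Candidate genes of the spontaneously hypertensive rat, 4 in number, were followed in the area postrema, a sensory organ of the medulla without a full blood-brain barrier: Ephx2, Ephx1, Gstm1 and Cd36. Every probe set whose only gene symbol in the platform annotation was one of these 4 names was taken, whatever its values. This gave 4 probe sets, 1 for each of the 4 genes, of 14217 genes named by a single symbol and 31042 probe sets on the Affymetrix Rat Genome 230 2.0 array that are not array controls. The probe sets were 1369663_at for Ephx2, 1387669_a_at for Ephx1, 1386985_at for Gstm1 and 1367689_a_at for Cd36. A further probe set, 1386901_at, is annotated to Cd36 together with a second symbol (Cd36l1), so it lay outside the rule and is given separately.

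The 23 arrays each held area postrema RNA pooled from 5 male rats, and the spread between arrays is therefore a spread between pools. There were 5 arrays from the spontaneously hypertensive rat (SHR), an inbred strain with raised blood pressure, and 5 arrays from the Wistar Kyoto rat (WKY), the normotensive strain it is usually compared with, all aged 10 to 13 weeks. Sprague Dawley (SD) rats, an outbred stock, were aged 10 to 12 weeks and gave 4 arrays of controls, 5 arrays after 48 h of food restriction and 4 arrays after 72 h of dehydration. The strain rats had no recorded treatment. The labels name a different labelling reagent for the SHR and WKY arrays than for the SD arrays, so strain and labelling cannot be told apart between these sets. The series asks by its title how the hypertensive, the hungry and the thirsty rat differ in this tissue. Signals are linear intensities in arbitrary units, scaled by the authors so that each array has the same trimmed mean of 100, and arrays are numbered as in their titles (the first SHR and WKY arrays carry no number and are called array 1).

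Ephx2 encodes soluble epoxide hydrolase, which turns epoxyeicosatrienoic acids into the corresponding diols. These epoxides are made from arachidonic acid by cytochrome P450 epoxygenases, act as vasodilators and are removed mainly by this enzyme; inhibitors of it lower blood pressure in several hypertensive rat models. Ephx1 encodes microsomal epoxide hydrolase, a membrane enzyme best known for detoxifying foreign epoxides. Gstm1 encodes a mu class glutathione transferase, which couples glutathione to electrophiles, and it is a candidate in stroke-prone SHR because its renal expression is low there. Cd36 encodes a fatty acid translocase and scavenger receptor of capillary endothelium, macrophages and microglia, and several SHR colonies carry a defective Cd36 gene.

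Ephx2 was far higher in SHR than in WKY. The 5 SHR arrays read 108, 97.0, 111, 104 and 104. The 5 WKY arrays read 16.1, 18.4, 38.6, 27.4 and 7.13. The lowest SHR array lay well above the highest WKY array, and the SHR arrays differed little among themselves. The means were 104.9 ± 5.29 in SHR and 21.5 ± 11.9 in WKY (SD, n = 5 arrays each). On the scale of log2(signal + 16), on which all differences below are given and which understates ratios at low signal, SHR exceeded WKY by 1.75 (SE 0.17, 95% confidence interval 1.39 to 2.10), a 3.35-fold difference on that scale, with a limma adjusted p of 6.67e-06. Within an array, the median place of Ephx2 among all probe sets was percentile 71.7 in SHR and percentile 28.8 in WKY. Its p ranked 65 among 18625 probe sets tested. The probe set entered that test only through the SHR arrays, since its level elsewhere was below the filter on low signal, so passing the filter and differing are not separate facts.

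In SD rats, whether control, fasted or dehydrated, Ephx2 levels overlapped those of WKY. The SD control arrays read 15.9, 31.4, 31.2 and 15.2, a mean of 23.4 ± 9.11 (n = 4). The fasted arrays read 36.2, 17.8, 28.3, 34.0 and 28.3, with a mean of 28.9 ± 7.14 (n = 5). The dehydrated arrays read 41.1, 21.2, 25.7 and 25.5, with a mean of 28.4 ± 8.75 (n = 4). All 13 SD arrays and all 5 WKY arrays were below the lowest SHR array, and the nearest to it was dehydrated array 1. In the order of means, SHR came first, then fasted, dehydrated and control SD, then WKY. An exact two-sided permutation test of SHR against its neighbour in that order, fasted SD, gave p = 0.00794, the smallest that 5 against 5 arrays allow, and 0.127 after Benjamini-Hochberg adjustment over the 16 neighbouring pairs of the 4 genes. The lower 4 groups overlapped with their neighbours (adjusted exact p from 0.724 to 0.929), and fasted and dehydrated SD changed places under quantile normalization.

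**Figure D1:**
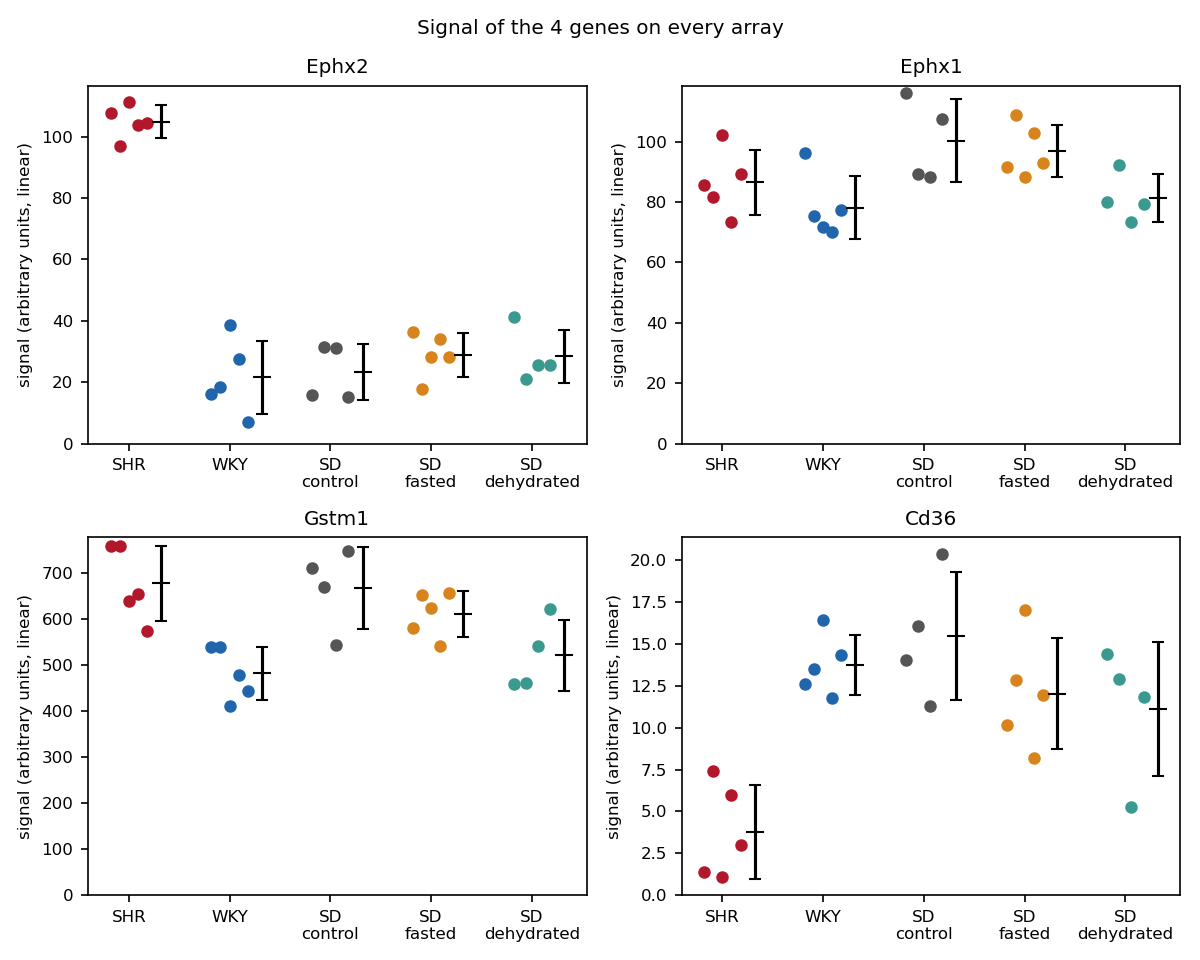
Signal (linear, arbitrary units, axes from 0) of Ephx2, Ephx1, Gstm1 and Cd36 on each of the 23 arrays, 1 point per array, with mean ± SD beside each group. For Ephx2 the SHR arrays lie between 97.0 and 111 and all others at or below 41.1, while the Cd36 panel spans only dim signals.

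Of the 3 genes of this set that passed the filter in SHR against WKY, 2 were called at an adjusted p below 0.05, Ephx2 and Gstm1, both higher in SHR. Over all probe sets tested, 5.06% were called in this comparison, 2.17% as higher and 2.88% as lower in SHR. The arrays of both strains did not overlap for the same 2 genes, against 6.33% of all tested probe sets. Cd36 did not pass the filter, and Ephx2 passed it only through its SHR arrays. The genes were also chosen with earlier results of these data known. Both counts are thus shaped by the values tested, and no result about the set is drawn from them.

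Ephx1, the microsomal hydrolase, did not pass the test between the strains. The SHR arrays read 85.8, 81.5, 102, 73.4 and 89.4, with a mean of 86.5 ± 10.7. The WKY arrays read 96.2, 75.3, 71.8, 70.0 and 77.4, with a mean of 78.2 ± 10.5. The arrays overlapped across nearly their whole range, and the difference of 0.12 (95% confidence interval -0.08 to 0.32) had a limma adjusted p of 0.575. The interval for Ephx1 ends far below the value measured for Ephx2, although the difference between both genes was not tested.

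Gstm1 was bright on every array, with group medians between percentiles 94.5 and 96.5 of an array's signals, and was higher in SHR than in WKY. The SHR arrays read 759, 760.4, 641, 656 and 574. The WKY arrays read 539, 539, 410.3, 479 and 443. Every SHR array was above every WKY array, though the gap between the lowest SHR and the highest WKY array was small beside the spread within a strain. The means were 678 ± 80.9 in SHR and 482 ± 57.5 in WKY, a difference of 0.48 (SE 0.09, 95% confidence interval 0.29 to 0.66), or 1.39-fold, with a limma adjusted p of 0.00276.

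Around Gstm1 on chromosome 2 lie several of its relatives. Among the 10 genes on either side of Gstm1 in the GRCr8 gene order, 11 were measured and 6 passed the filter. The 1 called, beside 5.06% of all probe sets, was Gstm5, another mu class transferase, which was lower in SHR. Gstm5 averaged 2364 ± 178 in SHR and 3109 ± 235 in WKY, a difference of -0.39 (SE 0.06, limma adjusted p 0.00059), and its arrays did not overlap. Gstm7 (-0.11, adjusted p 0.548), Gstm2 (0.10, adjusted p 0.758) and Gstm4 (-0.15, adjusted p 0.434), also mu class, did not pass. Mu class genes are close in sequence, and probe sequences were not used here, so a share of each signal could come from a relative. The promoters of the 2 genes that were called in opposite directions are shown for comparison, from RefSeq on GRCr8, as the 250 bases before each start. Gstm1 lies on the minus strand at chr2:198343384-198343633 and Gstm5 on the plus strand at chr2:198219519-198219768, and both are written 5′ to 3′ on the gene's own strand.

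Gstm1: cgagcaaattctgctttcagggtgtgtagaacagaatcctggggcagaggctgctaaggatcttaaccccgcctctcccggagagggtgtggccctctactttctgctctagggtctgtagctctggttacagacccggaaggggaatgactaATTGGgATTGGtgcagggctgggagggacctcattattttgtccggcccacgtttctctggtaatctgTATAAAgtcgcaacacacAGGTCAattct

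Gstm5: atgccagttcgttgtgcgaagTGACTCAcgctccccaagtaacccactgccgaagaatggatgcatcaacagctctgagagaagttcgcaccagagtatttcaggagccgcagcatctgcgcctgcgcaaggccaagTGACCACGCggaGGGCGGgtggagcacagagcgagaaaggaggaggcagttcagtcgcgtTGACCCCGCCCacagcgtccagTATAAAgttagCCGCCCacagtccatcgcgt

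Capitals mark matches on either strand to 6 motifs, each given with its share among 33469 rat promoter windows of this length. The core promoter element TATAAA is held by 12.9% of windows. The letters CCAAT, bound by nuclear factor Y, are held by 34% of windows. The GC box, searched as GGGCGG, is held by 30.5% of windows. The AP-1 site, searched as TGANTCA, is held by 6.34% of windows. The antioxidant response core, searched as TGACNNNGC, is held by 10.1% of windows. The nuclear receptor hexamer, searched as AGGTCA, is held by 14.1% of windows. Both promoters hold a TATA box, which begins 29 bases before the start in Gstm1 and 31 bases before it in Gstm5. The Gstm1 window holds 2 CCAAT boxes on the reverse strand and 1 nuclear receptor hexamer, and no match to the AP-1 or antioxidant response letters. The Gstm5 window holds 3 GC boxes, 1 AP-1 match and 2 matches to the antioxidant response core, of which the one nearer the start overlaps a GC box. The sequences are those of the reference rat, not of SHR or WKY, and a match is a run of letters and not a site shown to be used. G and C made up 52.4% of the Gstm1 window and 58.8% of the Gstm5 window, with 7 and 19 CG pairs.

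The neighbours of the other 3 genes did not pass the test between the strains. Around Ephx2 on chromosome 15, 13 of the 20 neighbours were measured and 6 tested, and 0 were called by limma. The closest of these to the threshold was Trim35, a ubiquitin ligase, with 0.15 (adjusted p 0.135). Chrna2, a nicotinic receptor subunit gene and the next gene after Ephx2, was below the filter and not tested, with overlapping arrays and a difference of -0.42 (SE 0.15). Clu, which encodes the secreted chaperone clusterin, showed -0.04 with a standard error of 0.29. Around Ephx1 on chromosome 13, 7 neighbours were measured, 6 tested and 0 called, and around Cd36 on chromosome 4, 3 were measured, 2 tested and 0 called. At an unadjusted limma p below 0.05 there was 1 neighbour of Ephx2 (Trim35), 1 of Ephx1 (Tmem63a) and 0 of Cd36, beside 17.2% of all probe sets tested. With eBayes without trend and robust, 0 were called in each set.

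**Figure D2:**
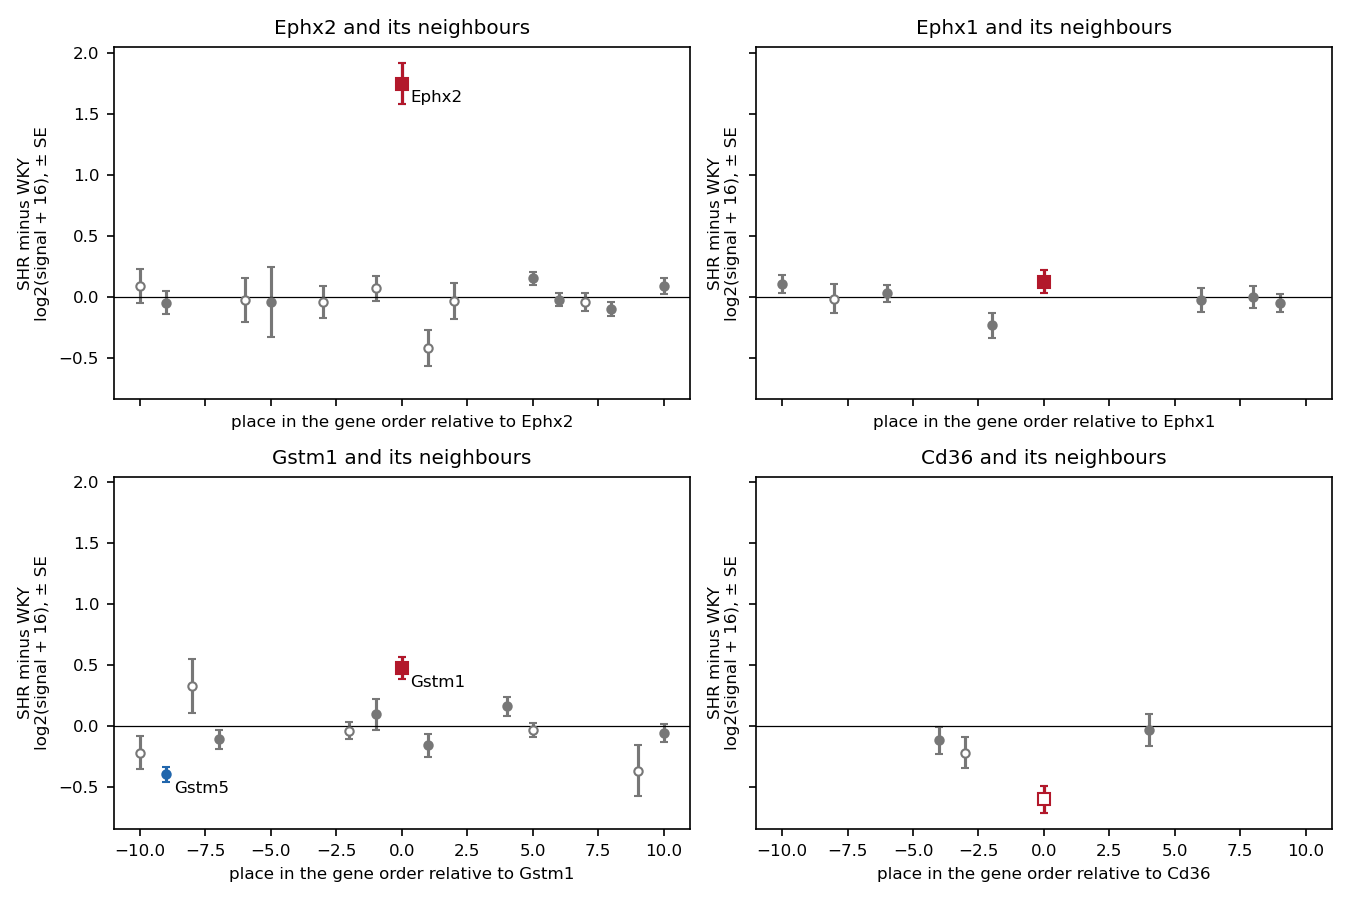
Difference between SHR and WKY in log2(signal + 16), ± SE, for each gene (red square) and the measured genes among the 10 on each side, placed by gene order; open symbols did not pass the filter on low signal, and blue marks a called neighbour. Ephx2 stands at 1.75 and its neighbours between -0.42 (Chrna2, below the filter) and 0.15, and Gstm5 at -0.39 is the called neighbour of Gstm1.

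Cd36 was dim in every group and dimmest in SHR. The SHR arrays read 1.36, 7.42, 1.06, 5.95 and 2.99. The WKY arrays read 12.6, 13.5, 16.4, 11.8 and 14.3. No SHR array reached the lowest WKY array. The means were 3.76 ± 2.82 and 13.7 ± 1.79, and the median place within the array was percentile 7.53 in SHR and percentile 22.3 in WKY. These are signals among the lowest of the array, where background weighs most, and detection calls were not used here, so no ratio of levels is drawn from them. Cd36 was left out of the main test for this reason. Without the filter, SHR was lower by limma (-0.60, SE 0.11, 95% confidence interval -0.84 to -0.36, adjusted p 0.00829), in a fit that called 2.77% of 31042 probe sets. The size of this difference depends on the constant added to the signal, being -1.84 with 1 and -0.20 with 64 in place of 16.

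The probe set annotated to Cd36 and a second symbol was brighter and was also lower in SHR. Probe set 1386901_at read 49.8, 26.2, 30.2, 26.3 and 43.4 in SHR. It read 61.6, 51.6, 70.0, 68.9 and 61.9 in WKY. The highest SHR array was just below the lowest WKY array. The means were 35.2 ± 10.8 and 62.8 ± 7.35, a difference of -0.64 (SE 0.13, limma adjusted p 0.00503). In the SD groups its means were 67.9, 63.3 and 65.3 for control, fasted and dehydrated rats. Since the annotation ties it to several symbols, this signal cannot be assigned to Cd36.

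Markers of cells known to carry Cd36 were measured beside it. For endothelial cells, 0 of 10 tested markers were called by limma between the strains. At an unadjusted limma p below 0.05 there were 3, beside 17.2% of all probe sets tested. The median difference was -0.03. The summed signal of all 13 endothelial markers on the array ran from 837 to 922 in SHR and from 794 to 1035 in WKY. For microglia and macrophages, 4 of 11 were called, all lower in SHR, beside 5.06% of all probe sets, with a median of -0.23. The summed signal of all 14 of their markers on the array was 2812 to 3353 in SHR and 3571 to 3955 in WKY. The 4 called were C1qa, C1qc, Aif1 and Ctss. C1qa was called in all 19 alternatives run for these markers, Ctss in all but eBayes without trend and robust (adjusted p 0.0743), while Aif1 was lost in 9 and C1qc in 10. The count was 1 with eBayes without trend and robust, 3 without SHR array 2, and 2 without the filter, with the Gapdh covariate, or without any one of SHR arrays 3, 4 or 5 or WKY arrays 1, 2 or 5. The median over all tested probe sets was 0.01. In SD rats the 14 microglial and macrophage markers summed to 2548 to 2875 in control and 2589 to 2825 in fasted arrays. In dehydrated arrays they summed to 2533 to 3138. All these sums lay below those of WKY. Mean Cd36 was 15.5 in SD control, 12.0 in fasted and 11.1 in dehydrated rats, against 3.76 in SHR. The marker sums thus did not follow Cd36 over the groups, although stock and labelling cannot be told apart there. The part of endothelial cells, microglia and macrophages in the Cd36 difference was not tested. In pooled tissue fewer cells of a type and less RNA per cell cannot be told apart. Promoter letters for Cd36 are shown because its signal and that of the shared probe set moved the same way: the 250 bases before its RefSeq start, chr4:18246332-18246581 on the plus strand of GRCr8, with the same motifs in capitals.

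Cd36: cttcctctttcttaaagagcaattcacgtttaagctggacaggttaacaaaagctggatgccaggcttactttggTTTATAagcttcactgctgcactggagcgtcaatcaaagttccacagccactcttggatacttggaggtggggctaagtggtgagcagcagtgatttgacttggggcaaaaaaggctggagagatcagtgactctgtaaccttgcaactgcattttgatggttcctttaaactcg

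The only match in this Cd36 window was a TATA box on the reverse strand, 170 to 175 bases before the start, and G and C made up 45.6% of it. Across all windows the median was 51.2%. For Ephx1 the table lists 2 starts, both on the minus strand of chromosome 13. The window of the start at chr13:95275853-95276102 holds 1 GC box, and that at chr13:95263118-95263367 holds 2 CCAAT boxes, 2 nuclear receptor hexamers and 2 AP-1 matches, of which 1 overlaps an antioxidant response core. Ephx1 showed no called difference between the strains, so these windows are described and not printed.

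Food restriction left the measured members without a call. Fasted minus control was -0.04 for Ephx1 (limma adjusted p 0.962) and -0.12 for Gstm1 (adjusted p 0.831), where 0.0215% of all probe sets were called, and Ephx2 and Cd36 were below the filter. The Ephx1 control arrays read 116, 89.1, 88.3 and 108 (mean 100.2 ± 13.8, n = 4). The Ephx1 fasted arrays read 91.4, 109, 88.4, 103 and 92.8 (mean 96.8 ± 8.58, n = 5), inside the range of the controls. The Gstm1 control arrays read 712, 671, 544 and 748 (mean 668.5 ± 88.9). The Gstm1 fasted arrays read 581, 653, 624, 541 and 657 (mean 611 ± 49.6), and their range overlapped that of the controls. Without the filter, Ephx2 differed by 0.20 (95% confidence interval -0.17 to 0.57, adjusted p 0.882) and Cd36 by -0.17 (-0.49 to 0.15, adjusted p 0.892).

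After dehydration the means of Ephx1 and Gstm1 were lower, but neither passed the test. The Gstm1 dehydrated arrays read 459, 462, 543 and 622 (mean 521 ± 77.4, n = 4), of which 1 lay within the range of the controls. Dehydrated minus control was -0.35 for Gstm1 (SE 0.10, 95% confidence interval -0.57 to -0.13, unadjusted p 0.00283, limma adjusted p 0.179). The Ephx1 dehydrated arrays read 79.9, 92.2, 73.2 and 79.5 (mean 81.2 ± 7.93, n = 4). Ephx1 differed from the controls by -0.25 (SE 0.11, 95% confidence interval -0.47 to -0.03, adjusted p 0.363), with 1 of 4 dehydrated arrays in the range of the controls. Across all probe sets 0.166% were called. Against fasted rats, with 0.0322% of probe sets called, the values were -0.22 for Ephx1 (adjusted p 0.481) and -0.23 for Gstm1 (adjusted p 0.447). Fasted minus control and dehydrated minus control use the same 4 control arrays. Without the filter, dehydrated minus control was 0.18 for Ephx2 (95% confidence interval -0.21 to 0.57, adjusted p 0.796) and -0.22 for Cd36 (-0.56 to 0.12, adjusted p 0.687).

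A marker of the choroid plexus, the epithelium of the fourth ventricle near the area postrema, was high on some SD arrays. Gstm1 was lower on those than on the other SD arrays. Transthyretin (Ttr), the main secreted protein of that epithelium, read above 2000, a limit set after the data were seen, on 5 of the 13 SD arrays (2715 to 7953): control array 3, fasted array 4 and dehydrated arrays 1, 2 and 3. On the other 8 SD arrays it read 152 to 856, and on the SHR and WKY arrays 44.2 to 189. Over all 23 arrays other markers of this epithelium were dimmer by median signal. Folr1 read 26.5 to 189, Kcnj13 read 13.4 to 29.8 and Kl read 2.65 to 34.6. Some of the others also varied widely. Sostdc1 had a median of 39.53 and a maximum of 500.5, and Otx2 ran from 0.4043 to 82.01. Gstm1 read 459 to 544 on the 5 arrays with high Ttr and 581 to 748 on the other 8, without overlap, and 3 of the 5 were dehydrated arrays. The share of all probe sets that separate on this split was not computed, so the separation cannot be called particular to Gstm1. Ephx1 read 73.2 to 103 and 79.5 to 116 on the same sets, which overlap. With the mean of 6 choroid plexus markers as a covariate, chosen after the data were seen, dehydrated minus control was -0.30 for Gstm1 (limma adjusted p 0.237) and -0.25 for Ephx1 (adjusted p 0.455). Of the 6 tested choroid plexus markers 0 were called by limma in dehydrated minus control (0 at an unadjusted p below 0.05), with a median of 0.24. The summed signal of all 11 markers on the array, Ttr among them, was 679.8 to 8811 in dehydrated and 624 to 7312 in control rats. Between the strains, where 5.06% of all probe sets were called, 1 of 6 tested choroid plexus markers was called. This was Cldn2, lower in SHR (-0.57, limma adjusted p 0.00355), a call lost in 1 of 18 alternatives (0.0686). Beside the same 5.06%, 3 of 11 tested markers of fibroblasts and meninges were called, all lower in SHR. These were Col1a2 (-0.67, limma adjusted p 0.00153), Igf2 (-0.53, adjusted p 0.00462) and Fmod (-0.51, adjusted p 0.000805). The summed signal of all 13 fibroblast and meningeal markers on the array was 6352 to 7672 in SHR and 7347 to 8885 in WKY. The part of these cells in the strain differences was not tested. With the choroid plexus covariate SHR minus WKY was 1.82 for Ephx2 (adjusted p 0.000159) and 0.47 for Gstm1 (adjusted p 0.0291).

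**Figure D3:**
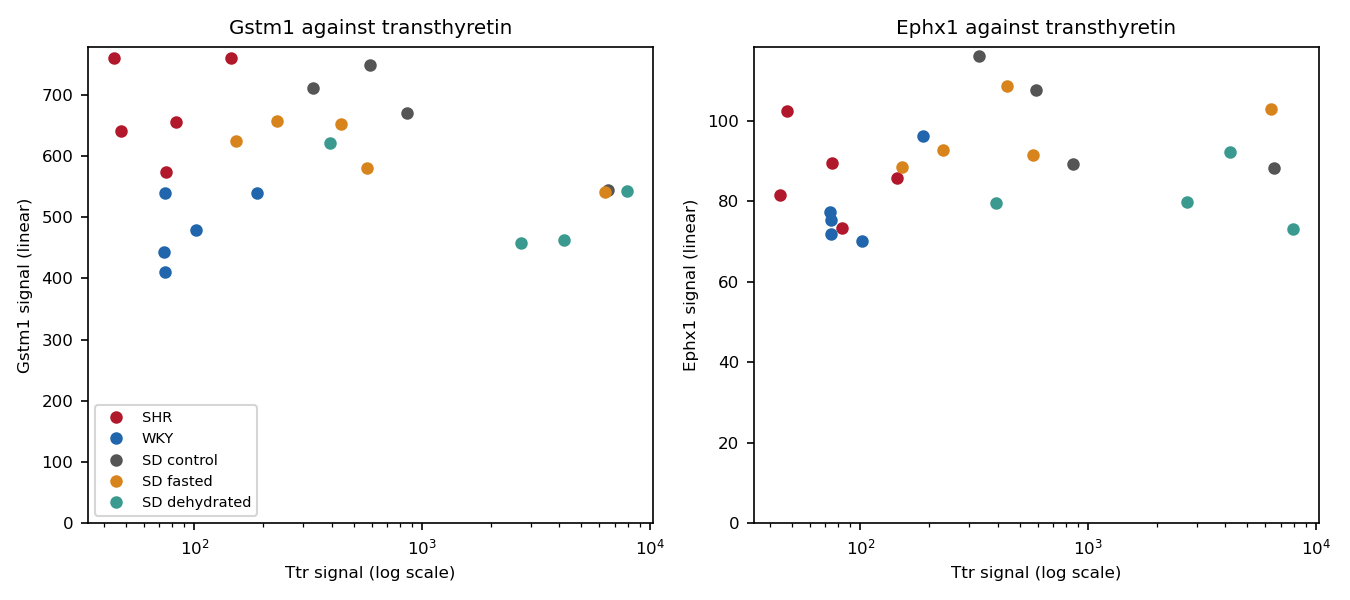
Signal of Gstm1 (left) and Ephx1 (right), linear from 0, against the Ttr signal on a log axis, 1 point per array and coloured by group. The 5 SD arrays with Ttr above 2000 have Gstm1 between 459 and 544, below the other 8 SD arrays.

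Set against SD controls in a model of all 23 arrays, an analysis added after the data were seen, Ephx2 was called in SHR, and Gstm1 and Ephx1 were called in WKY. Ephx2 was higher in SHR by 1.65 (SE 0.18, limma adjusted p 1.86e-07), and WKY minus control was -0.10 (95% confidence interval -0.48 to 0.28, adjusted p 0.755). Ephx2 was tested here on a mean that the SHR arrays raised, its WKY and control means being below the filter, and without the filter limma's adjusted p was 5.47e-07 for SHR and 0.801 for WKY. Gstm1 showed the reverse arrangement: SHR minus control was 0.02 (95% confidence interval -0.19 to 0.23, adjusted p 0.91), while WKY was lower by limma (-0.46, SE 0.10, adjusted p 0.00199) with no overlap between arrays. The gap was narrow, from 539.4 in the highest WKY array to 543.9 in control array 3, an array with high Ttr. The share of all probe sets without overlap was not computed for this contrast. Ephx1 was -0.18 in SHR (adjusted p 0.215) and lower in WKY (-0.30, SE 0.10, adjusted p 0.0325). The Ephx1 call was lost without WKY arrays 2, 3, 4 or 5 or without control arrays 1 or 4 (adjusted p 0.0535 to 0.121), with the choroid plexus covariate (0.0506) and with the Gapdh covariate (0.0728). In these contrasts 19.9% and 18.7% of all probe sets were called, and strain, stock and labelling cannot be told apart in them. Both contrasts share the control arrays.

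The order of the 5 groups differed from gene to gene. Ephx1 ran from SD control through fasted, SHR and dehydrated to WKY, and the lowest adjusted exact p between neighbours was 0.476. Gstm1 ran from SHR through SD control, fasted and dehydrated to WKY, with 0.339 as the lowest. Cd36 ran from SD control through WKY, fasted and dehydrated to SHR. The SD control arrays of Cd36 read 14.1, 16.1, 11.3 and 20.4, a mean of 15.5 ± 3.82. The fasted arrays read 10.2, 12.8, 17.0, 8.17 and 11.9, a mean of 12.0 ± 3.32. The dehydrated arrays read 14.4, 12.9, 5.28 and 11.9, a mean of 11.1 ± 4.03. Dehydrated array 3 was the 1 array outside SHR that fell within the SHR range of Cd36. Dehydrated SD against SHR gave an exact p of 0.0397, which became 0.317 after adjustment. Among the 16 pairs Ephx2 in SHR against fasted SD was the one without overlap. A single separated pair cannot pass here, because the smallest p that 5 against 5 arrays allow becomes 0.127 after adjustment over 16 pairs, so the adjusted values do not show that neighbouring groups are alike.

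**Figure D4:**
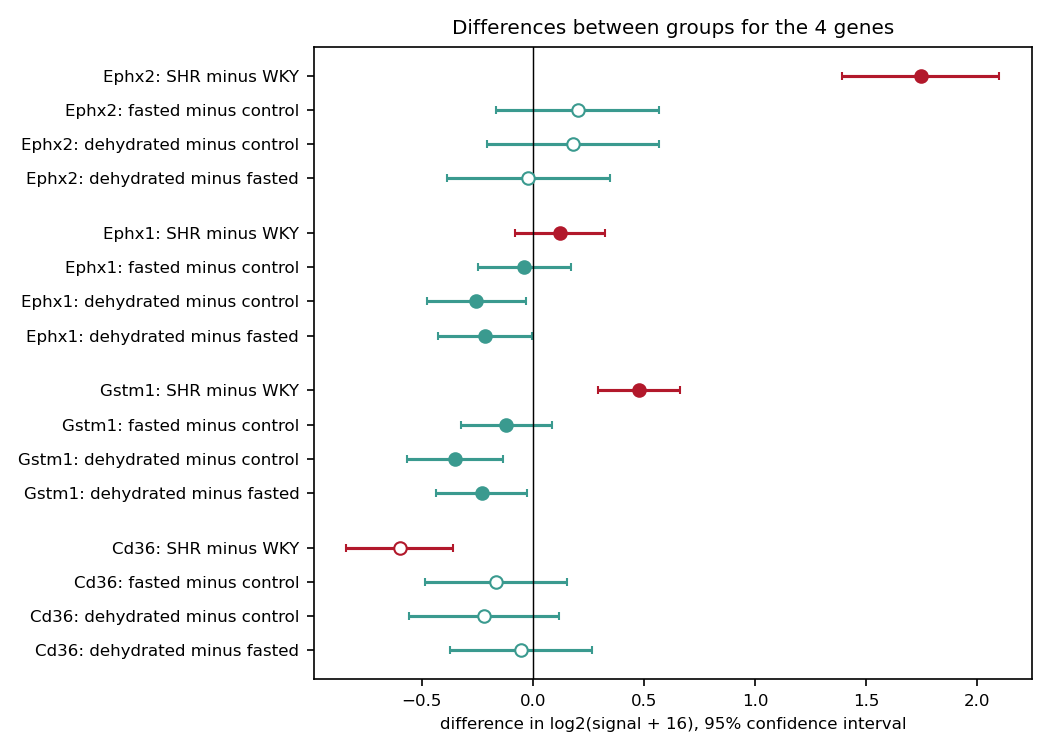
Difference in log2(signal + 16) with its 95% confidence interval for each gene in the 4 comparisons, red for SHR minus WKY and green for comparisons within SD rats; open symbols are genes below the filter, taken from the fit without it. Ephx2 at 1.75 and Gstm1 at 0.48 lie above 0 in SHR minus WKY, and Cd36 at -0.60 lies below it.

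The genes around the hydrolases in epoxide and arachidonate metabolism were read from lists, beside the 5.06% of all probe sets called between the strains. Of 4 tested genes of the epoxide hydrolase group, Ephx2 alone was called. Lta4h, which makes leukotriene B4, was at 0.07 (limma adjusted p 0.625). Of 11 tested P450 epoxygenases and omega-hydroxylases, 1 was called, higher in SHR, with a median of 0.06 against 0.01 over all tested probe sets. The gene was Cyp4f1, a fatty acid omega-hydroxylase, at 581.5 ± 64.6 in SHR and 364.5 ± 52.2 in WKY (0.66, SE 0.10, adjusted p 0.000367), with no overlap between arrays. The epoxygenases Cyp2j3 (0.17, adjusted p 0.447), Cyp2j4 (-0.01, adjusted p 0.976) and Cyp2c11 (-0.19, adjusted p 0.593) did not pass. Of 12 genes for arachidonate release, cyclooxygenase and lipoxygenase, 2 were called, both lower in SHR, with a median of -0.18. Ptgs2, the inducible cyclooxygenase, read 39.3 ± 11.4 against 65.9 ± 11.4 (-0.58, adjusted p 0.0184), a call lost in 5 of 19 alternatives, without SHR arrays 3 or 5 or WKY arrays 1 or 2 (adjusted p 0.0509 to 0.057) and with the Gapdh covariate (0.0731). Tbxas1, thromboxane synthase, was at -0.32 (adjusted p 0.0378), and its call was lost in 10 of 20 alternatives, with SHR arrays 3, 4 or 5 or WKY arrays 1, 2, 3 or 5 left out among them (0.0591 to 0.104). The choroid plexus covariate is not among the alternatives counted for list genes, here or below.

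Among the 20 tested glutathione transferases, 2 were higher and 2 lower in SHR, beside 5.06% of all probe sets called, with a median of 0.04. Beside Gstm1 the theta class enzyme Gstt3 was higher, at 263 ± 28.0 against 199 ± 9.51 (0.37, SE 0.07, limma adjusted p 0.00539), with no overlap. Beside Gstm5 the alpha class Gsta1 was lower (-0.24, adjusted p 0.0167), a call lost in 4 of 20 alternatives, among them without SHR array 1 (0.0507) or 3 (0.0561). Of 21 targets of the antioxidant regulator Nrf2 and enzymes of glutathione synthesis, 2 were called, both lower in SHR, with a median of -0.07. These were Me1, the cytosolic malic enzyme, at 676 ± 78.4 against 1060 ± 52.5 (-0.64, SE 0.07, adjusted p 1.33e-05), and the glutathione peroxidase Gpx2 (-0.48, adjusted p 0.0109). In dehydrated minus control, 16 of 19 tested transferases had a negative difference and 0 were called by limma (7 at an unadjusted p below 0.05, beside 11.7% of all probe sets), with a median of -0.20 against -0.01 over all probe sets. This lean was not particular to the transferases. In the Nrf2 list 19 of 20 were negative and 1 positive (median -0.15). Of 25 PPAR receptors, coactivators and targets, 23 were negative and 2 positive (median -0.14). The summed signal of all 22 transferases on the array was 10210 to 12820 in dehydrated and 11380 to 14120 in control rats. Of 12 fibroblast and meningeal markers 0 were called there by limma (6 at an unadjusted p below 0.05), with a median of -0.22, and 3 of the 4 dehydrated arrays were those with high Ttr. The part of these cells in the transferase values was not tested. Nqo1, a quinone reductase and Nrf2 target, was the 1 of 20 genes of its list called there, beside 0.166% of all probe sets. It read 214 ± 14.6 against 285 ± 4.38 (-0.39, limma adjusted p 0.0454). The call was lost in 11 of 18 alternatives, among them without any one of the 4 control arrays or of dehydrated arrays 1, 2 or 3 (0.0848 to 0.159).

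**Figure D5:**
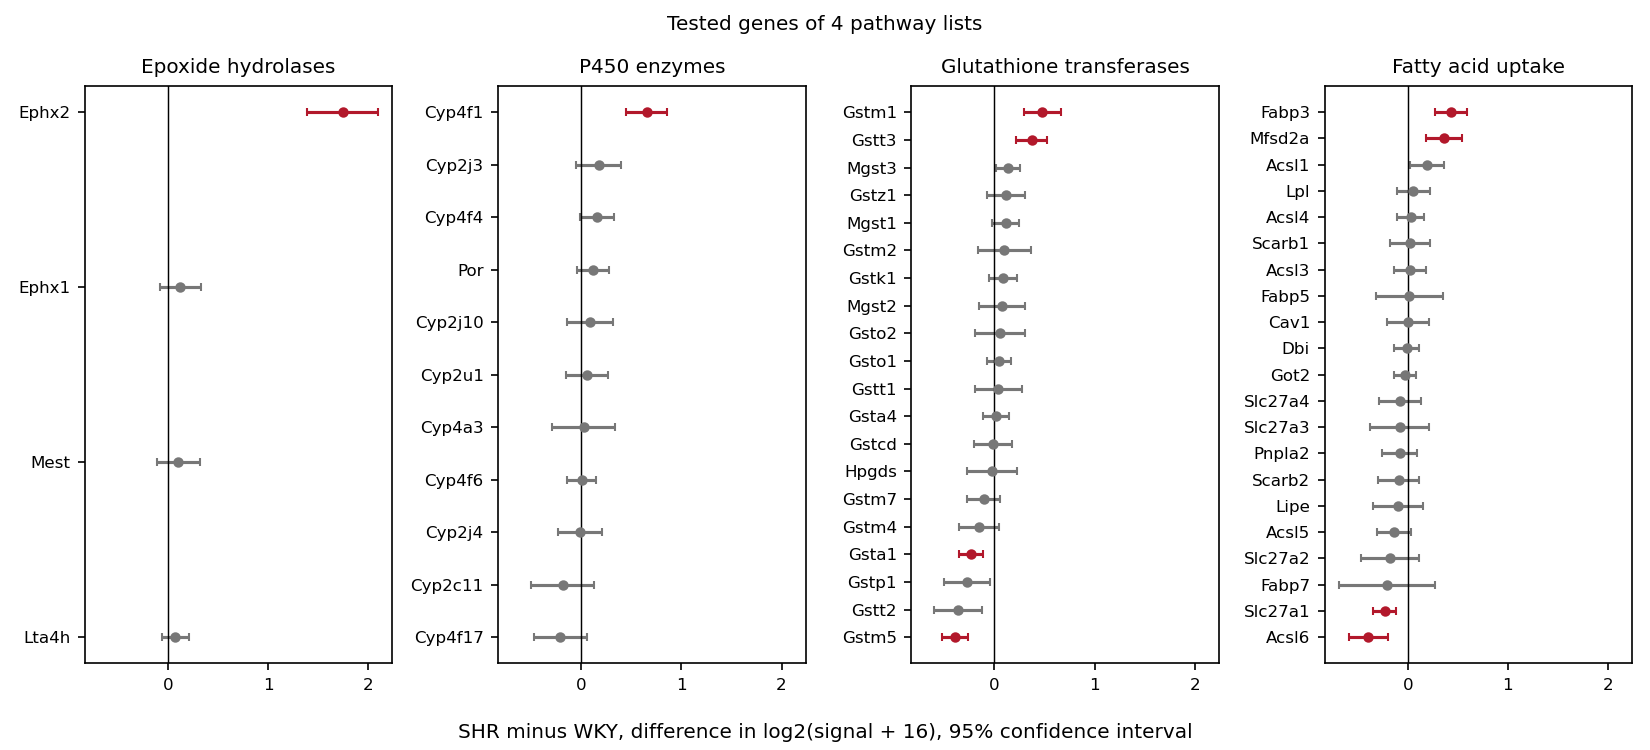
Difference between SHR and WKY in log2(signal + 16) with 95% confidence interval for the tested genes of the epoxide hydrolase, P450, glutathione transferase and fatty acid uptake lists; red marks an adjusted p below 0.05. Ephx2 lies at 1.75 beside Cyp4f1 at 0.66, and the transferases include called genes on both sides of 0.

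Among genes of fatty acid uptake, binding and activation, the list to which Cd36 belongs, 2 of 21 tested were higher and 2 lower in SHR. Their median was -0.03, and over all probe sets 5.06% were called between the strains. Fabp3, a cytosolic fatty acid binding protein, read 350.2 ± 35.3 against 255 ± 19.6 (0.43, SE 0.08, limma adjusted p 0.00171). Mfsd2a, the lysolipid transporter of the brain endothelium, was higher (0.36, adjusted p 0.0192), a call lost in 4 of 20 alternatives, among them without SHR arrays 1 or 4 or WKY array 3 (0.054 to 0.0578). Slc27a1, a fatty acid transport protein, was lower (-0.23, adjusted p 0.0171), lost in 4 of 20, among them without SHR array 3 (0.0575). The acyl-CoA synthetase Acsl6 was lower (-0.39, adjusted p 0.0192), lost in 5 of 20, among them without SHR arrays 1 or 4 or WKY arrays 4 or 5 (0.0534 to 0.0582). Scarb1, a scavenger receptor of the same family as Cd36, was at 0.02 (adjusted p 0.946). Of 26 PPAR receptors, coactivators and targets, 4 were called, all higher in SHR, with a median of 0.03. Angptl4, an inhibitor of lipoprotein lipase, read 183.5 ± 36.6 against 98.4 ± 9.43 (0.79, SE 0.11, adjusted p 0.000177). Acot1, a cytosolic acyl-CoA thioesterase, rose by 0.63 (adjusted p 0.00019) and Ech1, an enzyme of fatty acid oxidation, by 0.29 (adjusted p 0.00255). Acadl, the long-chain acyl-CoA dehydrogenase, rose by 0.22 (adjusted p 0.0477), a call lost in 15 of 20 alternatives, among them without any one of the arrays but SHR array 2 (0.0505 to 0.131). In dehydrated minus control, Acadvl, the very long-chain enzyme, was the 1 of 25 called, beside 0.166% of all probe sets. It read 281 ± 12.6 against 396 ± 29.6 (-0.47, limma adjusted p 0.016). The call was lost in 7 of 18 alternatives, among them without control arrays 1, 2 or 4 or dehydrated arrays 1 or 2 (0.0534 to 0.0912).

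Other genes named as candidates in SHR numbered 18 tested, of which 2 were higher and 1 lower, beside 5.06% of all probe sets called, with a median of -0.07. Agtr1b, the type 1b angiotensin II receptor, read 47.8 ± 5.28 in SHR against 20.2 ± 4.64 in WKY (0.82, SE 0.11, limma adjusted p 0.000114). Agtrap, a protein that binds type 1 angiotensin II receptors and limits their signalling, read 79.7 ± 20.5 against 27.7 ± 12.5 (1.17, SE 0.22, adjusted p 0.00669). Both genes were tested on a mean over all 10 arrays that the SHR arrays raised, their WKY means being below the filter, and without the filter the adjusted p was 0.000482 for Agtr1b and 0.00782 for Agtrap. Another Agtrap probe set gave 1.87 (adjusted p 4.87e-06), and with a constant of 1 in place of 16 the adjusted p of the first was 0.0572. The natriuretic peptide receptor Npr1 was lower (-0.30, adjusted p 0.0277), a call lost in 8 of 20 alternatives, among them without SHR arrays 3 or 4 or any of WKY arrays 1 to 4 (0.0539 to 0.0779). For 2 of the other genes a further probe set passed limma's test where the brightest did not: Snx10, a sorting nexin, was at 0.25 (adjusted p 0.0678) by its brightest and at -0.46 (adjusted p 0.00772) by another, and Ogn, a matrix proteoglycan, was at -0.14 (adjusted p 0.553) by its brightest and at -0.41 (adjusted p 0.0442) by 1 of 3 others.

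The genes whose pattern over the 23 arrays was most like that of Ephx2 shared its step between SHR and the rest. They were Zfp597, a zinc finger protein (Pearson r = 0.90 over 23 arrays), Atg10, an autophagy enzyme (0.89), the succinate dehydrogenase assembly factor Sdhaf4 (0.85), the valine catabolism enzyme Hibch (0.84) and the matrix protein Matn1 (0.83). Zfp597 averaged 209 in SHR, 53.1 in WKY and 50.2 to 51.6 in the SD groups. For Ephx1 the closest were Ptgr2, a prostaglandin reductase (0.80), Sdhd (0.74), Zdhhc1 (0.73), Slc25a20 (0.69) and Fancl (0.68). Ptgr2 averaged 267 in SHR, 242.5 in WKY, 351 in SD control, 319.5 in fasted and 278 in dehydrated rats. For Gstm1 they were the sulfotransferase Sult1a1 (0.81), Cavin3 (0.80), the neuropeptide gene Cartpt (0.76), the ATP-gated channel P2rx2 (0.75) and Calu (0.75). Sult1a1 averaged 588.5 in SHR, 469 in WKY and 518 to 625 in the SD groups. These correlations describe 23 arrays that fall into 5 groups and 2 labelling sets, and they were the highest among 10425 genes compared.

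Across the series, array medians ran from 39.8 to 44.5 and correlations between arrays of a group from 0.975 to 0.985. For Gapdh, array controls at both ends of the transcript gave a 3′ over 5′ signal ratio, a sign of RNA length, whose log2 had medians of 0.21 in SHR and 0.10 in WKY, and the calls for Ephx2 and Gstm1 held with it as a covariate. Markers of the area postrema were present, with Calcr at 95.6 to 166, Casr at 162 to 300 and Th at 246 to 428 over the 23 arrays, while Glp1r was dim at 19.5 to 49.3. Of 11 tested area postrema markers, 1 was called between the strains, beside 5.06% of all probe sets: Cartpt, higher in SHR (0.48).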

How the data were processed

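RNA of 23 area postrema pools was hybridised to 1-colour Affymetrix arrays. The deposited values are linear intensity signals that the authors made with GCOS 1.2, per the submitters' processing notes, whose parameters no source used here records. After removal of 2% at each end every array had a mean of 100, so no further normalization was applied. Of 31042 probe sets, 20826 had 1 symbol, 436 several and 9780 none. Groups came from the titles, and 0 columns lacked a sample.

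Tests were two-sided limma 3.58.1 fits (R 4.3.3; linear models, then robust eBayes with a trend) on log2(signal + 16), leaving out probe sets whose mean lay below the 40th percentile, with Benjamini-Hochberg adjustment over the 18625 kept and a threshold of 0.05. SHR and WKY were fitted on 10 arrays and the SD contrasts on 13. Neighbouring groups in the order of levels were compared by exact permutation tests (Python 3.11.15, scipy 1.17.1). The number of arrays limits the precision. The fit was tested on simulated data.

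Genes of lists were read by their probe set with the highest mean, and those past the threshold, or else up to 2 with the smallest p, were named; the 5 most similar genes followed Pearson r. A few list members that did not pass were named after their values were seen. The members, lists and rules were chosen with earlier results of these data known. Alternatives were quantile normalization, constants of 1 or 64, filters at the 60th percentile or none, plain eBayes, all 23 arrays, the replicate number as a block, the Gapdh ratio as covariate, the mean of a gene's probe sets, each array left out, and, added after the data were seen, the choroid plexus covariate.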

Additional observations from a re-analysis of the deposited data

How the results depend on the processing

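Over 273 alternatives to the 16 differences of Ephx2, Ephx1, Gstm1 and Cd36, 0 changed a call of a gene that passed the filter. All differences of Cd36, and those of Ephx2 within SD rats, were below the filter and had no call to change. Cd36 in SHR minus WKY passed without the filter (limma adjusted p 0.00829), which is not counted as a change. Ephx2 in SHR minus WKY has no result under the higher filter. Among the 273 alternatives, 4 moved a value and 9 changed the sign of a difference that had not been called. Of these, fasted minus control for Ephx1 was 0.025 without control array 1, within -0.088 to 0.025 over the arrays left out, and the other 8 were dehydrated minus fasted for Ephx2 and Cd36, both below the filter. SHR minus SD control for Gstm1, also not called, was -0.071 with the Gapdh covariate, -0.11 with the choroid plexus covariate and -0.072 to 0.078 with an array left out. WKY minus SD control for Ephx2 ran from -0.25 (without WKY array 3) to 0.059 (without WKY array 5) with an array left out. Fasted minus dehydrated SD for Ephx2 was -0.021 under quantile normalization. SHR minus WKY ranged from 0.99 to 2.42 for Ephx2 (adjusted p 3.94e-08 to 0.000781) and from 0.42 to 0.55 for Gstm1 (0.00012 to 0.0291). The 4 that moved were Cd36, read on a dim signal: with a constant of 1 its differences were -1.84 in SHR minus WKY, -0.35 in fasted minus control and -0.49 in dehydrated minus control, and with 64 it was -0.20 in SHR minus WKY. Counts of called probe sets moved more. SHR minus WKY had 942, and 544 with the choroid plexus covariate. Fasted minus control had 4, with 2 without the filter, 2 with plain eBayes, 9 with the choroid plexus covariate, and 2 to 6 with an array left out. Dehydrated minus control had 31, with 15 without the filter, 10 with plain eBayes, 74 in the model of 23 arrays and 9 to 42 with an array left out. Dehydrated minus fasted had 6, with 3 with plain eBayes, 2 with the Gapdh covariate and 2 to 10 with an array left out. The counts with an array left out were lowest without dehydrated array 1 or control array 4 in dehydrated minus control. Same-numbered arrays of SHR and WKY had correlations of deviations of 0.158, 0.274, 0.0234, -0.00642 and 0.0299 for arrays 1 to 5. These values do not settle whether the numbers pair the arrays. With the replicate block, 1073 probe sets were called in SHR minus WKY, 15 in dehydrated minus control and 1 in dehydrated minus fasted. The limma adjusted p of Gstm1 in SHR minus WKY was then 0.00012, and no call of the 4 genes changed. The mean of a gene's probe sets was not run for counts, and each of the 4 genes had 1 probe set. For Ephx2 and Cd36 in SD rats, and Cd36 in SHR minus WKY, the fit without the filter is the value given. Dim signal limits what can be said of Cd36.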
